A study of Homo sapiens with 4 samples.

Results

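Peaks of A3B binding at the 3′ ends of protein-coding genes were examined in 2 uveal melanoma cell lines, OMM2.3 and 92.1. A peak was counted here if it overlapped the window 2 kb either side of the 3′ end of a protein-coding gene record of GENCODE release 44 (GRCh38) on chromosomes 1 to 22, and did not overlap 1 kb either side of the 5′ end of any such gene. By this rule 1734 of 55061 autosomal peaks of OMM2.3 and 3871 of 134484 autosomal peaks of 92.1 were 3′ end peaks, 5605 in all among the 192845 peaks of both lists. No measured value of a peak entered the rule. Chromatin from formaldehyde-fixed, sonicated cells was precipitated with an anti-A3B antibody (Abcam) or with normal rabbit IgG (CST), and the precipitated DNA was sequenced (ChIP-seq). The series has 1 A3B and 1 IgG library for each line, with no treatment or knockdown, and the IgG library served as the control in peak calling. With 1 library per group there is no replicate, so no test between the lines was possible, and all intervals given are 95% intervals of counting error only. Both lines are tumour-derived and permanently cultured, and each stands for a single tumour.

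A3B (APOBEC3B) is a nuclear cytidine deaminase that acts on single-stranded DNA. An R-loop is a structure in which nascent RNA pairs with the template DNA strand and leaves the other DNA strand single. R-loops are known to form at the starts of genes and over transcription terminators, where RNA polymerase II runs on past the poly(A) signal, slows and is released after the transcript has been cut. The comparisons below address whether A3B peaks were placed at these ends more densely than elsewhere, and on which side of the end.

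The sequence under 3 of these peaks is shown because each summit lay in the flanking DNA of a named gene and outside every annotated exon. The peaks past GABPA and EEF1G overlapped a 3′ end peak of the other line, and the peak past DIRAS1 was among the strongest downstream of a gene end. Each runs from 100 bp before to 100 bp after the summit in GRCh38, written 5′ to 3′ on the strand of the gene. Capitals mark the poly(A) signal hexamers AATAAA and ATTAAA.
GABPA: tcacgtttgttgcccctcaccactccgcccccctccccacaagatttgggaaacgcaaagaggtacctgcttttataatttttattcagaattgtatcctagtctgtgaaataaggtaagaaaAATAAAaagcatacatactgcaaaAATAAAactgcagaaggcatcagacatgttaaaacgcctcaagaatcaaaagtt
EEF1G: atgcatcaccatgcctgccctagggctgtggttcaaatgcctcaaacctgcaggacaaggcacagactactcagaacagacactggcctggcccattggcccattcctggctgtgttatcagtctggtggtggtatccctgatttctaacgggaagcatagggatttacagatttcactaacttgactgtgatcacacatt
DIRAS1: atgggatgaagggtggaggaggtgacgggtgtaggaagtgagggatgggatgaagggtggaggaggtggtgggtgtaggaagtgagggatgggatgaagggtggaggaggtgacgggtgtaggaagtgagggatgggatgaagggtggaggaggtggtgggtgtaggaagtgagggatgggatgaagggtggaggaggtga

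The GABPA stretch, chr21:25773604-25773804 on the plus strand, lay 1244 bp past the end of this ETS-family transcription factor gene and held 2 copies of the hexamer. The EEF1G stretch, chr11:62558687-62558887 on the minus strand, lay 809 bp past the end of the gene for the gamma subunit of translation elongation factor 1. The DIRAS1 stretch, chr19:2713713-2713913 on the minus strand, lay 754 bp past the end of a small GTPase gene and matched itself at 100% of positions when shifted by 88 bp. All 3 were taken from the OMM2.3 summits. Of sampled 32-base words, the share found more than once in the reference was 0% in the GABPA and EEF1G stretches and 100% in the DIRAS1 stretch.

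Over the whole lists, summits lay in the windows slightly more densely than in the rest of the autosomes. The windows without the zones around 5′ ends covered 65.6 Mb, or 2.38% of the autosomes outside assembly gaps, and 3′ end peaks made up 3.15% of autosomal peaks in OMM2.3 (3.01 to 3.30, Wilson) and 2.88% in 92.1 (2.79 to 2.97). In OMM2.3 the windows held 1634 summits where 1427 were expected from the density of the rest of each chromosome, a ratio of 1.15 (1.09 to 1.20). In 92.1 they held 3690 where 3209 were expected, a ratio of 1.15 (1.11 to 1.19). Both intervals lay above 1. Among the stronger peaks the ratio was below 1, but only the interval of OMM2.3 at the p threshold excluded 1. At a p of at most 1e-05 the ratio was 0.159 in OMM2.3 (0.0397 to 0.639) and 0.978 in 92.1 (0.676 to 1.41), and at a q of at most 0.05 it was 0.155 (0.0218 to 1.11) and 0.339 (0.0843 to 1.37). Only 2 and 32 3′ end peaks passed that p, and 1 and 2 that q. Against sequence 2 to 10 kb from the ends, the ratios at that p were 1.10 (0.223 to 5.47) and 1.12 (0.734 to 1.70).

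Against its neighbourhood the gene end showed little or no excess. Against the flanks 2 to 10 kb from the same ends the ratio was 0.981 in OMM2.3 (0.928 to 1.04) and 1.03 in 92.1 (0.997 to 1.07), and both intervals included 1. Against flanks 5 to 20 kb away it was 0.994 (0.943 to 1.05) and 1.04 (1.004 to 1.08), so that the interval of 92.1 then lay above 1. In bins of 500 bp within 2 kb of the end, the ratio to the rest of the chromosome had extremes of 0.901 and 1.30 for OMM2.3, and of 1.03 and 1.27 for 92.1. Between 2 and 10 kb the extremes were 1.03 and 1.44, and 1.05 and 1.23. The lowest bin of OMM2.3 was the last 500 bp before the end, with 176 summits and a ratio of 0.901 (0.778 to 1.04), and its interval included 1. The 5′ ends of the same genes differed between the lists in the same count. In 92.1 the ratio there rose to 1.66 in the 500 bp before the start, and over the zones within 1 kb it was 1.47 (1.41 to 1.53), whereas in OMM2.3 the zones had a ratio of 1.02 (0.949 to 1.09). These 5′ ratios were by chromosome only and were not weighted by GC content.

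**Figure D1:**
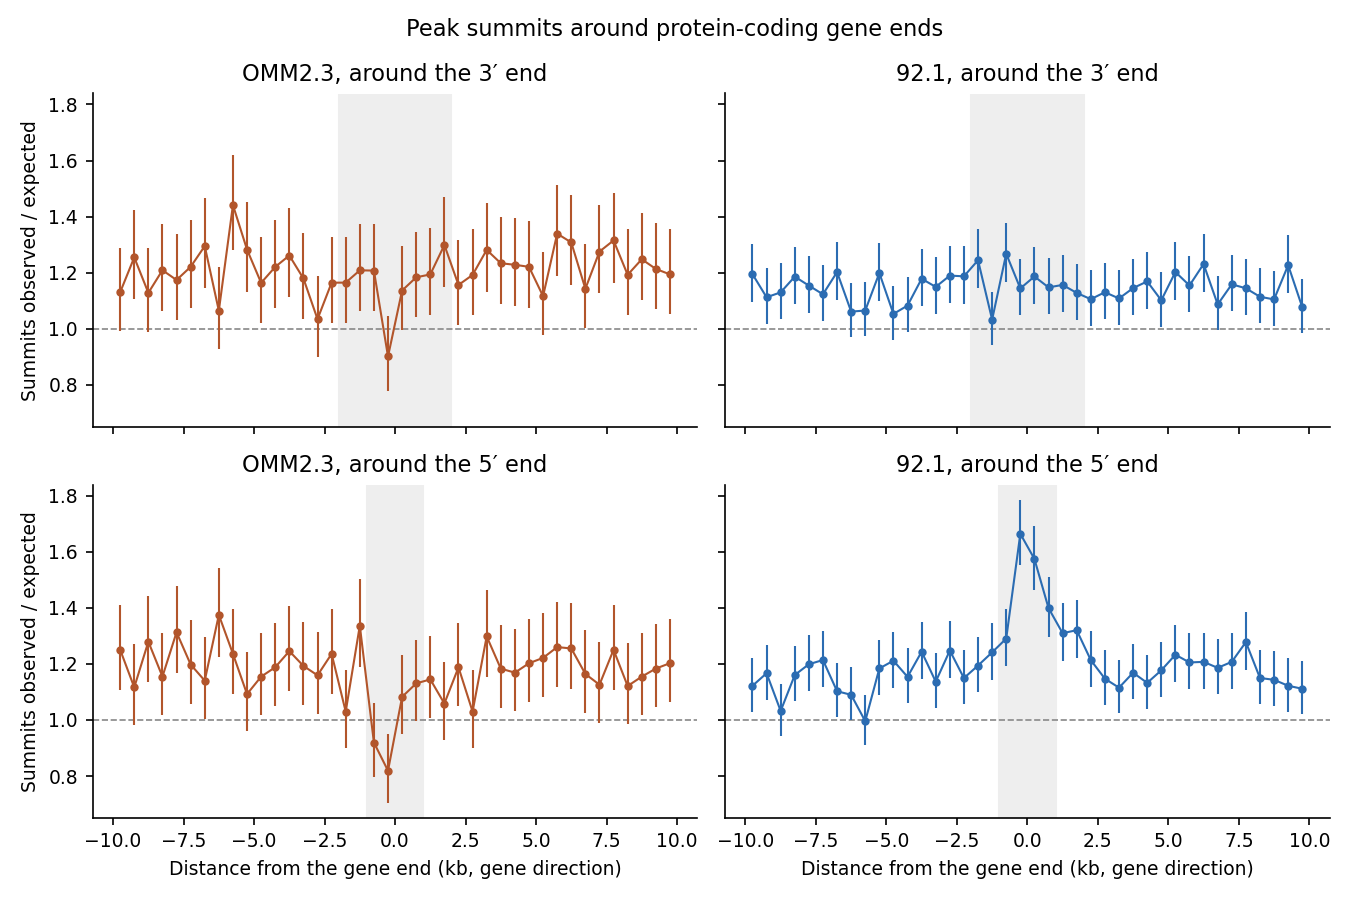
Summits observed over summits expected from the rest of each chromosome, in bins of 500 bp along the gene direction, around 3′ ends (top; zones within 1 kb of a 5′ end left out) and 5′ ends (bottom) in each line; bars are 95% intervals of counting error and grey marks the window or zone. Around the 3′ end no bin within 2 kb exceeds 1.30 in OMM2.3 or 1.27 in 92.1, while the 5′ end of 92.1 reaches 1.66.

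The ratio was lower when base composition was taken into account. When expected summits were also weighted by the GC content of the surrounding 1 kb, the ratio fell to 0.945 in OMM2.3 (0.900 to 0.992) and to 1.08 in 92.1 (1.05 to 1.12), so that the lines lay on opposite sides of 1. Mean GC within 100 bp of the summit was 51.4% ± 0.226 (SE) for the 1734 3′ end peaks of OMM2.3 and 46.2% ± 0.0383 for all its autosomal peaks. In 92.1 the values were 46.9% ± 0.172 for the 3871 3′ end peaks and 42.3% ± 0.0257 for all. All stretches of the same length on a grid over the windows had a mean of 45.7%, and stretches over the autosomes had 40.9%. The 3′ end peaks of OMM2.3 were thus 5.66 points richer in GC than the windows of all genes, and those of 92.1 were 1.19 points richer. All autosomal peaks were likewise richer than stretches over the autosomes, at 46.2% and 42.3% beside 40.9%. The windows that held a peak were not measured apart from the others. The part of GC in the density was not tested further.

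Peaks lay on both sides of the end. Downstream of the end OMM2.3 had 25.5 summits per Mb and upstream 23.6, a ratio of 1.08 (0.979 to 1.20). In 92.1 the densities were 55.2 downstream and 56.5 upstream, a ratio of 0.976 (0.914 to 1.04), so neither line differed between the sides beyond counting error. At ends whose downstream 5 kb held no other protein-coding gene the ratios were 1.13 (0.999 to 1.28) and 0.983 (0.904 to 1.07). The median summit lay 94 bp downstream of the nearest end in OMM2.3 and 58 bp upstream in 92.1, with 81 and 246 peaks spanning the annotated end itself.

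By annotation, 27.3% of the summits of OMM2.3 3′ end peaks lay in a 3′ UTR, 10.1% in another exon, 25.4% in an intron and 36.8% outside both annotated exons and protein-coding genes. Other exons were those of any gene type, so exons of noncoding genes were counted among them. In 92.1 the shares were 31.6%, 8.76%, 24.0% and 35.4%. The 3′ UTR, which makes up 32.5% of the window length, held 458 summits in OMM2.3, a ratio of 1.001 to expectation (0.914 to 1.10), and 1191 in 92.1, a ratio of 1.15 (1.09 to 1.22). Other exons had ratios of 1.39 (1.19 to 1.61) and 1.20 (1.08 to 1.34), and introns 1.25 (1.13 to 1.38) and 1.22 (1.14 to 1.30). Outside protein-coding genes and annotated exons the ratios were 1.15 (1.06 to 1.25) and 1.10 (1.04 to 1.16). Other exons were also the most GC-rich of these places, at 57.0% ± 0.711 (SE, n = 176) in OMM2.3 and 53.4% ± 0.608 (SE, n = 339) in 92.1.

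Against the rest of the autosomes, gene arrangement separated the ends in 92.1. Ratios to the flanks were not made by class of gene. Ends that faced the 3′ end of a gene on the other strand within 5 kb (tail-to-tail, 4084 genes) had a ratio of 1.35 (1.25 to 1.45) in 92.1, and isolated ends (10677 genes) had 1.10 (1.05 to 1.15), and these intervals did not overlap. With GC weighting the tail-to-tail ends of 92.1 kept a ratio of 1.20 (1.12 to 1.30), and the isolated ends had 1.05 (1.01 to 1.10). In OMM2.3 the tail-to-tail ratio was 1.22 (1.09 to 1.37) and the isolated ratio 1.10 (1.04 to 1.18), and with GC weighting they were 0.895 (0.797 to 1.01) and 0.946 (0.888 to 1.01). Ends followed by a gene start on the same strand within 5 kb (2070 genes) had ratios of 1.20 (1.03 to 1.40) in OMM2.3 and 1.24 (1.12 to 1.38) in 92.1, and with GC weighting 0.903 (0.776 to 1.05) and 1.13 (1.02 to 1.26). By gene length, ends of the shortest genes, up to 14414 bp, had ratios of 1.24 (1.14 to 1.34) in OMM2.3 and 1.21 (1.14 to 1.28) in 92.1. Ends of the longest, over 51078 bp, had 1.03 (0.943 to 1.12) and 1.08 (1.02 to 1.14). With GC weighting the length classes of OMM2.3 lay between 0.922 and 0.967, and those of 92.1 between 1.05 and 1.12.

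**Figure D2:**
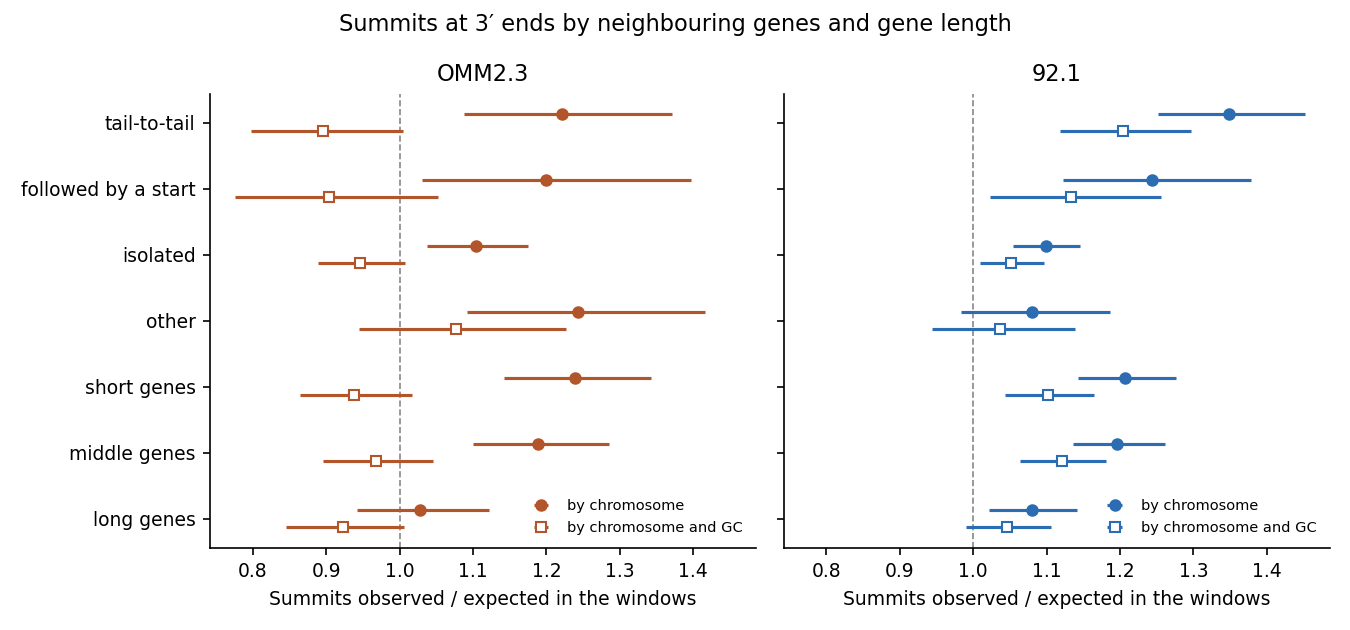
Summits observed over expected in the 3′ windows (horizontal axis) for gene ends grouped by neighbouring genes and by gene length, one panel per line; filled circles weight the expectation by chromosome, open squares by chromosome and GC, and bars are 95% intervals of counting error. Open squares lie left of the filled circles throughout, and in 92.1 the tail-to-tail ends remain at 1.20.

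Density in the windows followed the chromosome. In OMM2.3 chromosome 10 had the fewest summits per Mb, 9.44 in the windows and 5.86 in the rest, and chromosome 22 the most, 58.4 and 45.9. In 92.1 chromosome 15 had 28.3 in the windows and 26.7 in the rest, and chromosome 8 had 98.9 and 105.0. The windows were denser than the rest on 18 of 22 chromosomes in OMM2.3 and on 21 of 22 in 92.1, and the interval lay above 1 on 7 and 12 of them and below 1 on none. Chromosome 8 was the exception of 92.1 and one of those of OMM2.3, with ratios of 0.942 and 0.864. Copy number of these cell lines was not measured here, and its part in the differences between chromosomes was not tested.

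**Figure D3:**
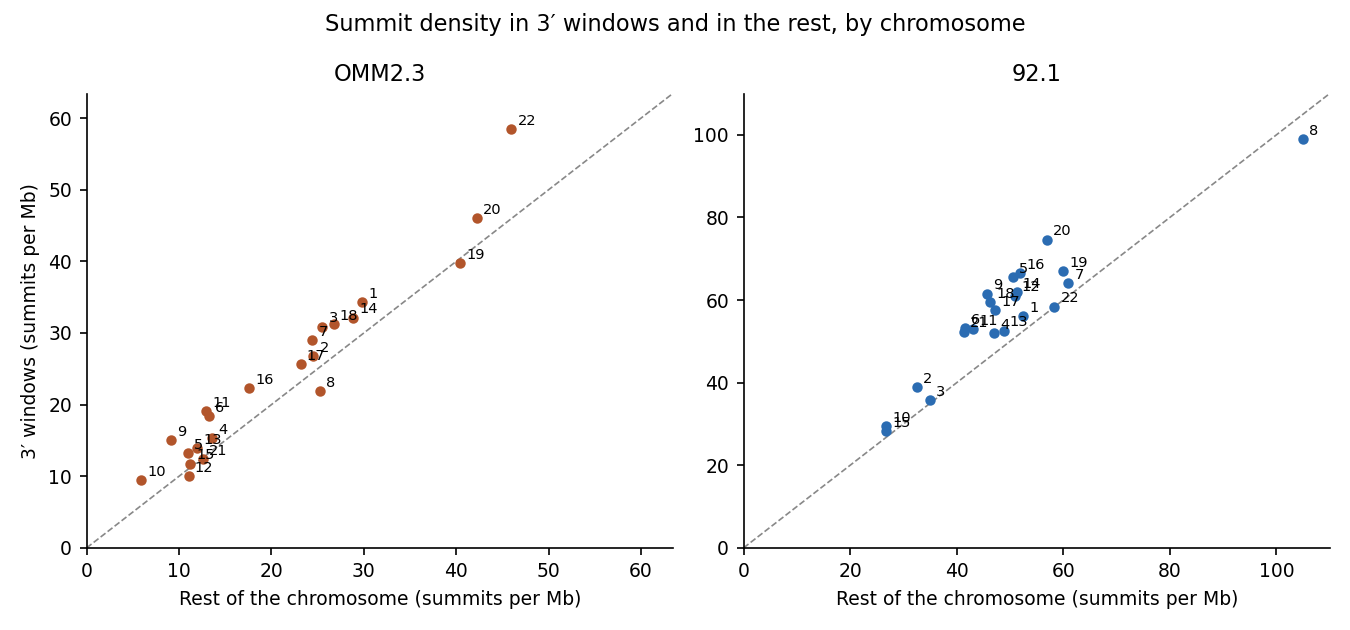
Summits per Mb in the 3′ windows (vertical) against the rest of the same chromosome (horizontal), 1 point per autosome labelled by its number, one panel per line; the dashed line marks equality. Points follow the line over a range of 9.44 to 58.4 in OMM2.3 and 28.3 to 98.9 in 92.1.

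A 3′ end peak was found at 1793 of 19111 protein-coding genes in OMM2.3 (9.38%) and at 3804 in 92.1 (19.9%). Of these genes, 406 had one in both lines, which is 22.6% of the OMM2.3 genes, beside 19.9% of all genes in 92.1, and 10.7% of the 92.1 genes, beside 9.38% of all genes in OMM2.3. Most genes with a peak had 1: 1667 in OMM2.3 and 3350 in 92.1. Some peaks, 181 in OMM2.3 and 388 in 92.1, lay at the ends of more than 1 gene. The genes with the most peaks in OMM2.3 were ZBTB49, TXNRD2 and INPP4A, with 3 each. In 92.1 ODF2 had the most, with 5, and FAM86B1 and CES2, with 3 each, were among several tied in the next place, as 24 genes had 3 or more. The 5 peaks of ODF2, which encodes a centriole appendage protein, lay from 1487 bp upstream to 1822 bp downstream of its end, with fold enrichments of 1.99 to 3.36 on 3 to 6 fragments. FAM86B1 belongs to a family of near-identical copies, and 2 of its 3 peaks lay fully in repeated sequence.

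The 3′ end peaks had close to the median strength of the lists they came from, while in OMM2.3 their strongest peaks were weaker. Fold enrichment, the ratio of scaled A3B fragments to the local IgG background with 1 added to both, had a median of 2.60 in OMM2.3 and 2.63 in 92.1, beside 2.60 and 2.66 for all autosomal peaks. The median −log10 p of the peak caller was 2.34 and 2.62, beside 2.34 and 2.68. Its 99th percentile was 3.95 in OMM2.3, beside 4.83 for all autosomal peaks, and 4.74 in 92.1, beside 4.74. A summit stood on a median of 6 fragments in OMM2.3 and 4 in 92.1, which equals the medians of all peaks. The quartiles were 5 and 7 fragments in OMM2.3 and 4 and 5 in 92.1. At least 8 fragments were found under 9.75% of the 3′ end peaks of OMM2.3 and 0.982% of those of 92.1, beside 11.0% and 1.14% of all peaks. Total reads per library are not in the peak lists, so fragments at the summit were the measure of depth.

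**Figure D4:**
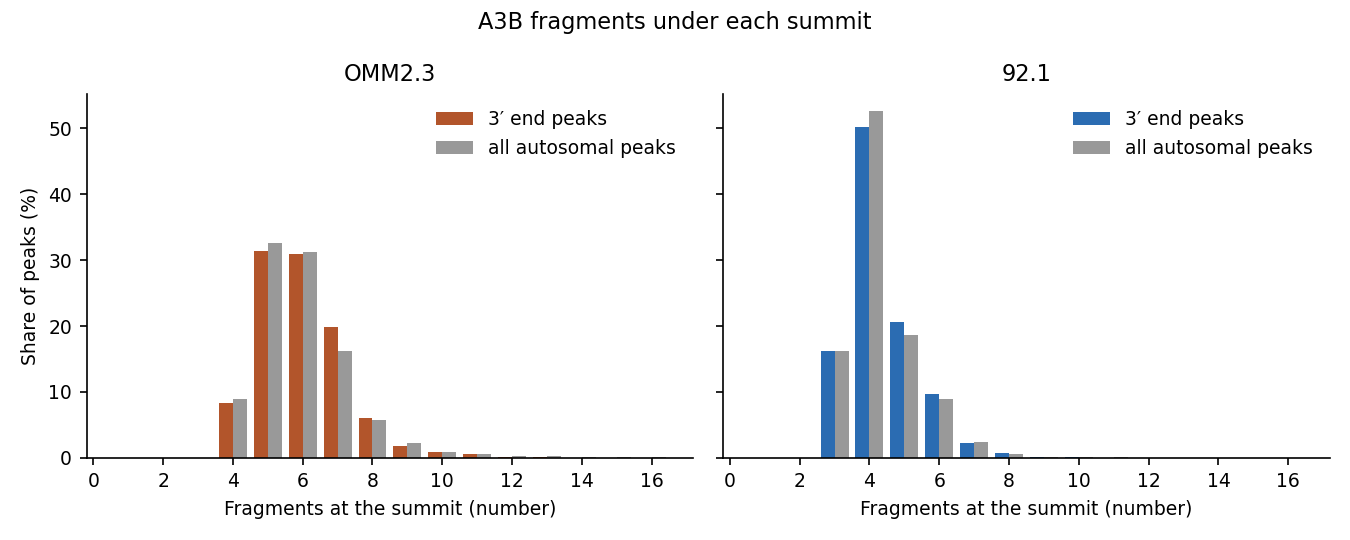
Share of peaks (vertical, %) by the number of A3B fragments at the summit (horizontal, up to 16), for 3′ end peaks (coloured) and all autosomal peaks (grey) in each line. The 2 distributions are similar but not the same, with medians of 6 fragments in OMM2.3 and 4 in 92.1. At 7 fragments in OMM2.3 the shares are 19.8% of 3′ end peaks and 16.2% of all, and at 5 fragments in 92.1 they are 20.7% and 18.6%.

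Few 3′ end peaks passed a stricter threshold. In OMM2.3 only 1 had a q of at most 0.05 (0.0577%, 0.0102 to 0.326), where 0.351% of all autosomal peaks had one, and so did 2 in 92.1 (0.0517%, 0.0142 to 0.188), where the background was 0.149%. A p of at most 1e-05 was reached by 2 in OMM2.3 (0.115%, 0.0316 to 0.420), where 0.728% of all autosomal peaks did, and by 32 in 92.1 (0.827%, 0.586 to 1.16), where 0.853% did. The q was exactly 1 for 99.5% of the 3′ end peaks of OMM2.3 and 94.5% of those of 92.1. At the edge of the window there was no step: peaks within 250 bp inside the limit had a median fold of 2.60 in OMM2.3 (n = 195) and 2.55 in 92.1 (n = 421), and those within 250 bp outside it 2.60 (n = 195) and 2.58 (n = 430).

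Repeated sequence was less common under these peaks than in the lists. At least 50% of 32-base words occurred elsewhere in the genome for 14.5% of the 3′ end peaks of OMM2.3 (13.0 to 16.3), beside 22.6% of all its peaks, and for 10.5% of those of 92.1 (9.54 to 11.5), beside 14.7%. Both 3′ end peaks of OMM2.3 with a p of at most 1e-05 lay in repeated sequence, as did 5 of the 32 of 92.1.

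In OMM2.3 the strongest 3′ end peak was at TAF11L9, a member of a family of near-identical genes, whose −log10 p was 6.46, at a fold of 3.35 on 22 fragments. Its IgG background of 5.00 was above the median of 1.15 for 3′ end peaks. Next was the peak 754 bp past DIRAS1, chr19:2713023-2713969, with a fold of 4.50 and a −log10 p of 5.47 on 10 fragments. The 3 that followed lay at MRPS17, a mitochondrial ribosomal protein gene, PRDM11, a PR-domain gene, and BLOC1S5, which encodes a subunit of a complex for lysosome-related organelles such as melanosomes. Their −log10 p was 4.91, 4.83 and 4.69 on 9 or 10 fragments. Of these 5 peaks PRDM11 alone, with 0% repeated words, lay in single-copy sequence, and none overlapped a peak of 92.1.

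In 92.1 the strongest peak, chr11:64315754-64316111, lay 505 bp past the end of TRMT112, a methyltransferase cofactor gene, and within the 3′ UTR of ESRRA, which runs on the other strand and encodes a nuclear receptor. Its fold was 5.15 and its −log10 p 7.44 on 10 fragments, with a q of 0.00357, and 76.5% of its words were repeated. The peak at ATXN3, a deubiquitinating enzyme gene, had a fold of 4.69 and a −log10 p of 6.24 on 8 fragments, with a q of 0.0411. Of its words 58.8% were repeated. Peaks at EIF4B, a translation initiation factor gene, and OR1F1, an olfactory receptor gene, each had a fold of 4.56 and a −log10 p of 6.04 on 8 fragments, both in sequence with 0% repeated words. The peak at UBE2W, a ubiquitin-conjugating enzyme gene on chromosome 8, had a −log10 p of 5.93. None of these 5 overlapped a peak of OMM2.3.

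Sharing between the lines was at the level of the whole lists. Of the 3′ end peaks of OMM2.3, 56 overlapped a 92.1 peak (3.23%, 2.50 to 4.17), beside 3.62% of all autosomal peaks. Of those of 92.1, 58 overlapped an OMM2.3 peak (1.498%, 1.16 to 1.93), beside 1.48%. In single-copy sequence the shares were 3.51% and 1.5003%, beside 3.49% and 1.30% of all autosomal peaks there. Overlapping 3′ end peaks of both lines at the same gene end formed 54 pairs at 62 genes. Their summits were a median of 128 bp apart, and in no pair did both peaks have 10 or more fragments.

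The strongest pair lay past GABPA, with a fold of 3.44 on 7 fragments in OMM2.3 and 3.20 on 4 fragments in 92.1, and summits 40 bp apart. The pair at HHIPL1, a secreted HHIP-like protein gene, lay about 1 kb before the end, in the 3′ UTR, with folds of 3.44 and 3.09. The pair past EEF1G had folds of 3.19 and 3.15, and its summits were 138 bp apart. At CHD7, a chromatin remodeller gene, the folds were 3.44 and 3.07, and at H2BC15, a histone H2B gene, they were 3.38 and 2.88. All 10 of these peaks had a q of 1.

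The poly(A) signal was rarer at the summits than in the windows, except downstream of the end in 92.1. The hexamer AATAAA on the gene strand was found within 100 bp of the summit in 8.30% of the 3′ end peaks of OMM2.3 (7.096 to 9.70) and 12.9% of those of 92.1 (11.9 to 14.0), beside 14.5% of all stretches of that length in the windows and 17.9% of stretches over the autosomes. On the opposite strand the shares were 8.54% and 13.0%, within the intervals of the gene strand. Downstream of the end the gene strand shares were 7.95% in OMM2.3 (6.34 to 9.92) and 12.3% in 92.1 (10.9 to 13.9), beside 12.0% of downstream window stretches. Upstream they were 8.68% (6.97 to 10.8) and 13.4% (12.0 to 15), beside 16.8%. Within bands of GC the intervals of the peaks held the window value. With GC of 40 to 50% the hexamer was in 12.0% of OMM2.3 peaks (9.53 to 15.1), 11.8% of 92.1 peaks (10.1 to 13.8) and 12.6% of window stretches. With GC under 40% the shares were 22.7% (17.6 to 28.7), 25.97% (23.5 to 28.6) and 27.6%.

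**Figure D5:**
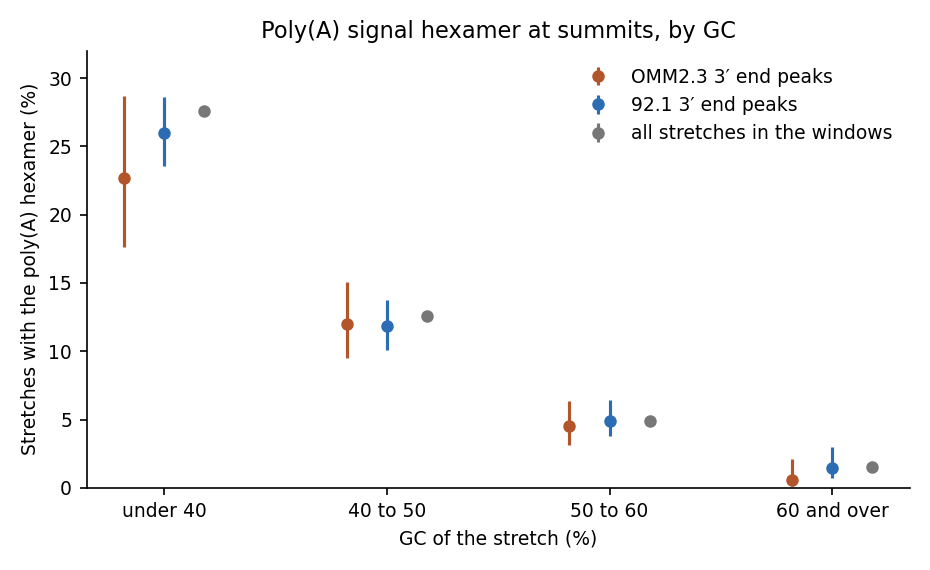
Share of stretches of 100 bp either side of a position (vertical, %) that hold the poly(A) signal hexamer on the gene strand, by GC of the stretch (horizontal, %), for 3′ end peaks of each line and for all stretches in the 3′ windows; bars are 95% Wilson intervals. In each band the window value lies within the intervals of the peaks, and the shares fall from above 20% to below 2% as GC rises.

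Strand asymmetry in G and C, which is a feature of sequence prone to R-loops, was small, though in 92.1 its mean lay above that of the windows. GC skew on the gene strand, (G − C)/(G + C), averaged 0.0036 ± 0.0044 (SE) in OMM2.3 and 0.012 ± 0.0028 in 92.1, beside 0.0063 in the windows. Among peaks downstream of the end it was 0.0014 ± 0.0062 (n = 881) and 0.014 ± 0.0041 (n = 1890), beside 0.0046 in the downstream windows. The means of 92.1 were thus above the windows by more than the SE, and those of OMM2.3 were not. With GC of 40 to 50% the skew was 0.015 ± 0.0079 (n = 532) in OMM2.3 and 0.021 ± 0.0052 (n = 1184) in 92.1, beside 0.0057 in the windows. In the other bands of GC the means of 92.1 lay within the SE of the window value. A run of 4 G, GGGG, was in 53.2% of the 3′ end peaks of OMM2.3 on the gene strand (50.9 to 55.6) and in 53.5% on the opposite strand (51.1 to 55.8). In 92.1 the shares were 46.0% (44.4 to 47.5) and 46.8% (45.2 to 48.4), and in the windows 43.1% and 43.3%. Within bands of GC the intervals of both lines held the window value on the gene strand. With GC of 40 to 50% the run was in 40.4% of OMM2.3 peaks (36.3 to 44.6), 41.9% of 92.1 peaks (39.1 to 44.7) and 40.4% of window stretches, and with GC of 50 to 60% in 57.2% (53.4 to 61.0), 61.5% (58.5 to 64.4) and 60.1%. Over the autosomes 31.9% of stretches held such a run on one given strand. The DIRAS1 stretch had a skew of 0.97.

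Of 28 genes of cleavage, polyadenylation and termination, 1 had a 3′ end peak in OMM2.3 (3.57%, 0.633 to 17.7) and 4 in 92.1 (14.3%, 5.70 to 31.5), and both intervals held the 9.38% and 19.9% of all genes. In OMM2.3 it was TTF2, a termination factor gene, with a fold of 3.02 and a −log10 p of 3.11, and the summit lay 648 bp past the end. In 92.1 the strongest was NUDT21, a cleavage factor subunit gene, with a fold of 3.20 and a −log10 p of 3.52. CSTF1, a cleavage stimulation factor subunit gene, had 2.66 and 2.68, and CPSF1, the largest subunit of the cleavage and polyadenylation specificity factor, had 2.39 and 2.53. At the CSTF1 summit 88.2% of the words were repeated.

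Of 5 genes known as examples of R-loops at terminators, ACTB, AKIRIN1 and ENSA had a 3′ end peak in OMM2.3 and ENSA had one in 92.1, while GAPDH and GEMIN7 had none in either list. The shares were 60% in OMM2.3 (23.1 to 88.2), beside 9.38% of all genes, and 20% in 92.1 (3.62 to 62.4), beside 19.9%. With 5 genes, and a list chosen with earlier results of these data known, these shares are not a test of terminator R-loops. The AKIRIN1 peak, chr1:39006849-39007081, lay 887 bp past the end with a fold of 3.44 and a −log10 p of 3.94. The ACTB peak lay 595 bp before the end in the 3′ UTR, with a fold of 3.02 and a −log10 p of 3.11. The peaks of ENSA, in an intron in both lines, lay 1439 bp and 668 bp before the end with folds of 3.02 and 2.51, and did not overlap each other. All 4 had a q of 1.

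Among 10 genes that the study connects with A3B, R-loops or replication stress, RNASEH1 had a 3′ end peak in OMM2.3, and APOBEC3B, CDC45 and MCM4 had one in 92.1. These shares, 10% (1.79 to 40.4) and 30% (10.8 to 60.3), had intervals that held the 9.38% and 19.9% of all genes. RNASEH1, which encodes a nuclease for RNA in RNA-DNA hybrids, had a fold of 2.27 and a −log10 p of 1.91, in its 3′ UTR. APOBEC3B itself had a peak at chr22:38992036-38992315, 621 bp before the end in an exon, with a fold of 3.65, a −log10 p of 4.45 and a q of 0.809, and a second, 1751 bp before the end in an intron, with a fold of 2.29. Repeated words made up 41.2% of the sequence at the first APOBEC3B summit and 82.4% at the second. CDC45, a replication helicase subunit gene, had a fold of 3.14 and a −log10 p of 3.54, 1728 bp before the end, and MCM4, another helicase subunit gene, 2.29 and 2.195. Replication-dependent histone genes have transcripts that end in a stem-loop and carry no poly(A) tail. A 3′ end peak was found at 6 of 69 of them in OMM2.3 (8.70%, 4.05 to 17.7) and 13 of 69 in 92.1 (18.8%, 11.4 to 29.6), near the 9.38% and 19.9% of all genes. The ends were those of the gene records, which were long for some of these genes. The H2BC15 record ran from 27838545 to 27855709 on chromosome 6, and that of H2AC6 from 26124145 to 26139116. A peak at such an end need not lie at a stem-loop end.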

How the data were processed

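A3B and IgG ChIP-seq libraries of OMM2.3 and 92.1 (1 per group) were made from fixed, sonicated chromatin. Per the labels and the study's methods, the authors used FastQC 0.11.9, aligned to GRCh38 with Bowtie2 2.2.5, cleared duplicate reads using Sambamba, and let MACS2 2.2.7.1 call the peaks of each A3B library with the IgG library of that line as control (p threshold 0.05). deepTools 3.5.1 and ChIPseeker are also named. The deposited lists give a score (the integer part of 10 times −log10 p), a fold enrichment ratio and −log10 p and −log10 q at the summit, which are the authors' own. Filters on mapping quality are not given in the sources used here.

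Peaks were compared with GENCODE release 44. Summit densities were compared per chromosome outside gaps. Fragment numbers were recovered from fold and −log10 p within 0.002 for 100% of OMM2.3 and 99.99% of 92.1 autosomal peaks. For 13.1% of the latter more than 1 number was possible and the lowest was used. Shares have 95% Wilson intervals and ratios 95% Poisson intervals. With 1 library per group no test was made. Named were, per line, the 5 strongest peaks and the 3 genes with most peaks, the 5 strongest shared pairs, and members of 4 gene lists; sequences were taken from shared pairs and downstream peaks outside exons, off chromosome 8, up to 3 of each, and 3 of these are not reported here. Members and lists were chosen with earlier results of these data known. Alternatives covered windows, thresholds, gene ends, backgrounds, overlaps and chromosomes. Membership, ratios and fragment recovery were tested on simulated data. Python 3.11.15, numpy 2.4.6, pandas 2.3.3, scipy 1.17.1 and matplotlib 3.10.9 were used.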

Additional observations from a re-analysis of the deposited data

Results flagged for a closer look

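With expected summits weighted by chromosome and GC, the density ratio of the 3′ windows was 0.945 in OMM2.3 and 1.08 in 92.1, on opposite sides of 1. With 1 library per line the difference was not tested.

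Chromosome X was outside the comparisons, and the same rule found 6 peaks at its protein-coding gene 3′ ends among 272 peaks in OMM2.3, and 31 among 812 in 92.1. These were listed as data left out of the comparisons, because the counts are above the 3 that a count of 0 allows. Of autosomal peaks, 3.15% in OMM2.3 and 2.88% in 92.1 were 3′ end peaks. An excess on chromosome X was not tested.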

How the results depend on the processing

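No paired analysis was possible because a group was never more than 1 library. Of 96 alternative values for 24 results, 55 stayed within the interval of the value reported or within 1.5 times a count. Values are given for OMM2.3 and then 92.1. The density ratio to the rest of the autosomes turned below 1 at a p of at most 1e-05 (0.159 and 0.978), at a q of at most 0.05 (0.155 and 0.339) and, in OMM2.3, with GC weighting (0.945, beside 1.08 in 92.1). It was 1.08 with a 1 kb window, 1.26 with chromosomes pooled and 1.21 in single-copy sequence in OMM2.3, and 1.09 against gene bodies in 92.1. The ratio to flanks became 1.10 and 1.12 at a p of at most 1e-05. The share of peaks was 1.65% and 1.61% with a 1 kb window, 7.27% and 6.46% with 5 kb, 3.35% and 3.17% with no 5′ zone, 2.70% and 2.53% with a 3 kb zone, 0.499% and 2.79% at a p of at most 1e-05, 0.518% and 1.00% at a q of at most 0.05, and 2.95% and 2.71% with the summit inside. Genes with a peak numbered 959 and 2209 with 1 kb, 3931 and 7680 with 5 kb, 3 and 36 at a p of at most 1e-05, and 2 and 3 at a q of at most 0.05. Sharing fell to 2.02% and 0.982% with overlap of at least 50% of the shorter peak and to 1.15% and 0.542% with summits within 100 bp. In 92.1, 0.827% passed a p of at most 1e-05 in place of a q. Either hexamer was found in 12.7% and 19.3%. Stricter thresholds and wider windows change the number of peaks by construction, and GC weighting changes the expectation. These do not fix the direction of a density ratio, and the cause of its changes was not tested. The causes of the other changes were not tested either. Leaving out repeat-masked sequence was not run, since the reference used here carries no masking. The single-copy alternative took its place and was chosen after seeing the data. With 4 to 6 fragments under a typical summit and no replicate, differences within the intervals given were not detectable at this depth.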

Other observations

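A3B deaminates cytosine after thymine, so TC dinucleotides on both strands were counted within 100 bp of each summit. The 3′ end peaks held a mean of 24.6 ± 0.115 (SE, n = 1734) in OMM2.3 and 24.0 ± 0.0755 (SE, n = 3871) in 92.1, beside 23.8 for all stretches of that length in the windows and 23.9 over the autosomes. Both lines lay above the windows by more than the SE, though by under 1 dinucleotide per stretch. No comparison at matched GC was made. Among replication-dependent histone genes, H2BC15 was the gene with a 3′ end peak in both lines, and its peaks of 342 bp and 702 bp overlapped over 342 bp with summits 87 bp apart. They lay at the end of its long gene record, which need not be the stem-loop end.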
